A study of Mus musculus with 8 samples.

Results

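Rag GTPase, folliculin and mTORC1 genes, which serve nutrient sensing at the lysosome, were examined for H3K27ac, the acetylated form of lysine 27 in histone H3 found at active promoters and enhancers. The nuclei were microglial and came from WT (wild-type) and GrnKO mice, which lack Grn. The Grn product, progranulin, is delivered to lysosomes. The genes were Rragd, Rragc and Rraga, Flcn, Fnip1 and Fnip2, Lamtor1, Mtor and Rptor, and their regions were the rows of the deposited table whose gene name equals one of these 9 symbols. This gave 79 of 129304 regions, for 9 of 18707 gene symbols. Each region was 800 bp long. All mice were C57BL/6, aged 2 years. The WT group and the GrnKO group each had 2 H3K27ac libraries and 2 input libraries, and each replicate pooled sorted nuclei of 2 mice, so the spread between replicates is a spread between pools. The sort, on frozen hemibrains, kept PU.1+ nuclei, PU.1 being a myeloid factor, and left out those with OLIG2 or NEUN. The labels used here give no sex and no description of the Grn allele. The 9 genes were selected on the H3K27ac difference between the genotypes in these same libraries, so their genotype values below are a description, and the calls quoted for them are those of the fit over all features. In pooled nuclei, fewer nuclei carrying the mark and less of the mark per nucleus cannot be told apart.

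The Rag GTPases are small GTPases that work as pairs, RagA or RagB with RagC or RagD, on the lysosomal surface, where the Ragulator complex, which includes Lamtor1, anchors them. When amino acids are plentiful the Rag pair binds Raptor, the product of Rptor, and so brings the kinase complex mTORC1, whose catalytic subunit is mTOR, to the lysosome. Folliculin (Flcn), in complex with Fnip1 or Fnip2, stimulates GTP hydrolysis by RagC and RagD. The RagC or RagD state set by folliculin governs whether mTORC1 phosphorylates the transcription factors TFEB and TFE3 and keeps them out of the nucleus. These factors, of the MiT/TFE family, bind E-box sites of the CACGTG type in promoters of lysosomal genes. Rragd, Flcn and other genes of this branch are known targets of these factors in other cells. Microglia are phagocytes with a heavy lysosomal load.

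The sequences before the starts of 5 of the genes are shown. Rragd, Fnip2, Fnip1 and Rragc had the 4 gene sums that were called higher in GrnKO. Lamtor1, where the GrnKO values lay between the WT values, held matches to the motifs marked below. Mtor, where they also lay between, is not shown. No H3K27ac value or call rests on these sequences. Each is the 250 bases before the RefSeq start in GRCm38.p6, 5′ to 3′ on the strand of the gene. Capitals mark matches to CACGTG and to TCATGTGA, an E-box variant.
Rragd, chr4:32982748-32982997, plus strand: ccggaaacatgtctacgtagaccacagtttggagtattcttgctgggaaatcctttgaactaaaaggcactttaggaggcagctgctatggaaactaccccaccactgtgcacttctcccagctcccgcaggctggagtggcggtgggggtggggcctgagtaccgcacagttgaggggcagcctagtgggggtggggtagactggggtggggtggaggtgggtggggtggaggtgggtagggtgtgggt
Rragc, chr4:123917183-123917432, plus strand: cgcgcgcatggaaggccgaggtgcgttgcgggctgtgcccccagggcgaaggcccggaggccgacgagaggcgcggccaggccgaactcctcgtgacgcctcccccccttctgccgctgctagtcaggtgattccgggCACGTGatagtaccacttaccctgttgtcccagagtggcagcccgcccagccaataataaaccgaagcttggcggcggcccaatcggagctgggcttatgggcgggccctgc
Fnip1, chr11:54437929-54438178, plus strand: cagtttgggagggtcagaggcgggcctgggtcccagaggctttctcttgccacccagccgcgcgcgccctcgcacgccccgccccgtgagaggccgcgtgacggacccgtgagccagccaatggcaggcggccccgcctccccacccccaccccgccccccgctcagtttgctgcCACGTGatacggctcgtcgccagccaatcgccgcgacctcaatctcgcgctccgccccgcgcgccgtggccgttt
Fnip2, chr3:79567680-79567929, minus strand: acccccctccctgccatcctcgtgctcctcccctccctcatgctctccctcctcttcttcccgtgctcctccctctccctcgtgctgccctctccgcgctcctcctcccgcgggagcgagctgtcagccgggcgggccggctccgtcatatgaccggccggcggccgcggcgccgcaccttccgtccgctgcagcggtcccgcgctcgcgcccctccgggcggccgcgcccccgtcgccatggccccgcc
Lamtor1, chr7:101905587-101905836, plus strand: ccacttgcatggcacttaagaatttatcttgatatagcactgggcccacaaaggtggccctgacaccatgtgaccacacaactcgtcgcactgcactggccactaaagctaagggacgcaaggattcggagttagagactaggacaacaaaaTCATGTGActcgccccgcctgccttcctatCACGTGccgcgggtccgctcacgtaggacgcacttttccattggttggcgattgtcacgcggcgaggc
The sequence before Rragd held 5 CG pairs and 59.6% G or C. Those before Fnip2 and Fnip1 held more, with 33 and 32 CG pairs and 76.8% and 73.6% G or C, and Rragc had 24 pairs and 68% G or C. The median over 32851 RefSeq promoters was 6 CG pairs and 52.4% G or C. CACGTG, which reads the same on both strands, lay 112 bases before the start of Rragc, 75 before that of Fnip1 and 68 before that of Lamtor1. It was in 7.15% of the 32851 promoter windows of 300 bases. Lamtor1 also held TCATGTGA 98 bases before its start, a motif in 0.986% of promoters on that strand or the other. The longer form TCACGTGA, in 0.974% of promoters, contains CACGTG and matched none of the 9 genes. In Rragc, Fnip1 and Lamtor1 the match was part of CACGTGAT on one of the strands, an extension searched after the sequences were seen, in 0.785% of promoters. No match was found in the windows of the other 6 genes. A match is a stretch of letters and no evidence that a factor bound there.

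The values are tags per region at a library total of 10000000, divided by a TMM factor computed over all tested regions, and are called scaled tags. The H3K27ac libraries held 15491642.5 to 20030832 tags. Of all tags, 49.4% fell in listed regions in WT replicate 1, which stood apart, and 63.3% to 65.7% in the other H3K27ac libraries. The targeted gene matched the labels: the promoter regions of Grn summed to 1313 and 1039 scaled tags in WT and to 6.79 and 6.00 in GrnKO. Microglial promoters were high in every library, with a sum over 7 of 8 markers of 6922 to 7891 scaled tags in WT and 5957 to 6212 in GrnKO, 2 of them, Tmem119 and Sall1, called lower. Promoters of the oligodendrocyte lineage, 4 of 5 with a region, summed to 66.3 to 101 scaled tags in WT and 70.8 to 81.7 in GrnKO, nearly all of it at Mbp and Mog, with Olig2, whose protein was gated out, at 2.26 or less. Mog held 54.0 and 47.7 in WT against 27.4 and 25.1 in GrnKO, and Mbp 45.0 and 18.6 against 51.8 and 44.8, neither of them called. The astrocyte marker Slc1a3 ranged from 176 to 211 over the 4 libraries. The promoters of 2 neuronal markers summed to at most 4.61. Promoters of border macrophage markers, 2 of 4 with a region, summed to 224 to 285 scaled tags in WT and 235 to 285 in GrnKO. For neutrophils the only promoter listed was that of S100a8, at 0 and 5.24 scaled tags in WT and 18.7 and 20.4 in GrnKO. For endothelial cells it was that of Flt1, at 12.5 and 31.4 in WT and 144.0 and 144.2 in GrnKO, called higher, while Cldn5, Cdh5 and Tek had no promoter region listed. The part of these levels in the results below was not tested.

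Of the 9 genes, 4 had a gene sum, the scaled tags summed over all regions assigned to the gene, that was called higher in GrnKO: Rragd, Fnip2, Rragc and Fnip1. A call is an adjusted p under 0.05 in limma, with Benjamini-Hochberg adjustment over all features. No gene sum was called lower, also with edgeR and DESeq2, and none of the 9 was lower at an unadjusted p under 0.05. Among all 15380 genes tested, 14.5% were called, 8.59% as higher and 5.88% as lower. Both GrnKO libraries lay above both WT libraries in 5 of the 9 gene sums and below them in 1, beside 25.4% and 29.4% of all genes, or 54.8% not overlapping in either direction. Of the 79 regions, 68 passed the filter on low tags, and 25 of these were called higher, 0 lower and 43 neither. Among all 80728 tested regions 9.71% were called, 6.80% as higher and 2.92% as lower. Since the choice of genes used this contrast, nothing is read from these shares. In 40 of the 68 both GrnKO libraries lay above both WT libraries and in 10 below, beside 27% and 25.6% of all tested regions, or 52.7% not overlapping. The called regions belonged to Fnip2, with 17 of 26 tested, Rragd, with 3 of 3, Rragc, with 3 of 11, and Fnip1, with 2 of 6. Without GrnKO replicate 1, which left 1 library in that group, 7 of the 68 were called, 4 of Fnip2, 2 of Rragd, 0 of Rragc and 1 of Fnip1, beside 1.67% of all regions. Without GrnKO replicate 2 fewer of the 68 were also called than with all libraries. The gene-sum log2 changes of Rragd and Fnip2 were 3.22 and 1.29 without GrnKO replicate 1, and 3.49 and 1.27 without GrnKO replicate 2. The gene sums of Rragc and Fnip1 lost their calls in either case. Without WT replicate 1, which stood apart, 30 of the 68 were called higher and 1 lower, beside 16.0% of all regions and 21.1% of all gene sums called in that fit, and the same 4 gene sums were called, at log2 changes of 3.09 for Rragd, 1.15 for Fnip2, 0.59 for Rragc and 0.50 for Fnip1. The median log2 change of the 68 regions was 0.72 against -0.0020 over all tested regions. edgeR and DESeq2 also called 0 regions lower, and 4 of the 68 were lower at an unadjusted p under 0.05. Of the 79 regions 34 overlap another one of the 79 and share tags with it, so neighbouring regions are not separate measurements.

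**Figure D1:**
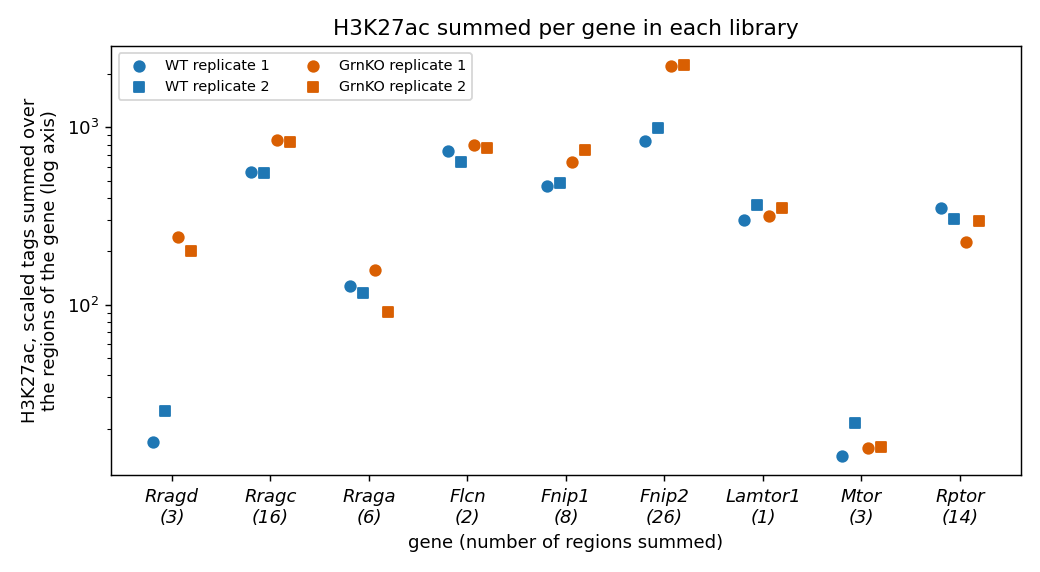
H3K27ac of the 9 genes, summed over the regions of each gene, in scaled tags on a log axis, with 1 point per H3K27ac library (2 WT, 2 GrnKO) and the number of regions under each name. The GrnKO points of Rragd, Rragc, Fnip1 and Fnip2 lie above both WT points, with the widest gap at Rragd (16.8 and 25.1 against 242 and 201), while those of Lamtor1 lie between the WT points and those of Rraga on either side of them.

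Rragd encodes RagD, one of the 2 alternative partners of RagA and RagB, and it had the largest difference of the 9 genes. Its gene sum was 16.8 and 25.1 scaled tags in WT and 242 and 201 in GrnKO. Both GrnKO values lay far above both WT values, and the means were 20.98 ± 5.89 and 222 ± 29.1 (SD, n = 2 each), 10.6-fold apart. The log2 change was 3.36 (SE 0.30), rank 17 from the top of 15380 genes tested. All 3 regions of the gene sit at its start and were called higher, and the middle one overlaps the other two. The region at chr4:32982468-32983268, centred 130 bp before the start in the promoter, held 4.69 and 4.45 scaled tags in WT and 63.1 and 46.8 in GrnKO (log2 change 3.31, SE 0.48). In WT this region rested on 6 and 8.5 tags, and in GrnKO on 111.5 and 101.5. With fewer than 10 tags in both WT libraries it passed the filter through the GrnKO libraries alone, so its call could only be higher. The region at chr4:32982980-32983780, in the 5′ UTR of exon 1 of 7, held 6.26 and 12.05 in WT and 105 and 87.4 in GrnKO (log2 change 3.32, SE 0.39). The third, at chr4:32983431-32984231 in intron 1 of 6, held 5.87 and 8.64 in WT and 73.8 and 66.7 in GrnKO (log2 change 3.13, SE 0.42). The second region rested on 8 and 23 tags in WT and the third on 7.5 and 16.5. With fewer than 10 tags in WT replicate 1, they too needed the GrnKO libraries to pass the filter and could hardly be called lower. In each of the 3 both GrnKO libraries lay above both WT libraries. The table listed no region of Rragd farther from its start. Within 100 kb of the start the table had 13 regions of 4 other genes, of which 7 were tested. None of these 7 was called by limma, edgeR or DESeq2, and 1 was lower and 0 higher at an unadjusted p under 0.05, beside 9.71% of all tested regions called. Around the other starts, counted the same way, 1 of 5 was called higher at Fnip2, 3 of 7 at Rraga and 2 of 29 at Lamtor1, and 1 of 15 was called lower at Flcn. None was called of 1 tested at Rragc, 5 at Fnip1 and 6 at Mtor, and at Rptor 0 were tested. The promoter region nearest the Ube2j1 start, centred 48462 bp beyond that of Rragd, held 94.6 and 100.3 scaled tags in WT and 86.6 and 116 in GrnKO. Leaving out GrnKO replicate 1 ended the call of the region centred 130 bp before the start (log2 change 3.10), and the gene sum was called under every alternative.

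Rragc encodes RagC, the other partner of RagA and RagB, and its difference was smaller. The sum over its 16 regions was 559 and 555 scaled tags in WT and 845 and 825 in GrnKO. Both GrnKO libraries lay above both WT libraries, with means of 557 ± 2.64 and 835 ± 14.2 (SD, n = 2 each), 1.498-fold apart, and the log2 change was 0.58 (SE 0.12). This call was lost when either GrnKO library was left out, at log2 changes of 0.56 without replicate 1 and 0.60 without replicate 2, where 1 library stood for the group. At the start, the region at chr4:123916949-123917749 held 126 and 108 scaled tags in WT and 163 and 176 in GrnKO (log2 change 0.54, SE 0.19) and was not called. The overlapping region centred 542 bp into the gene, at chr4:123917575-123918375 in intron 1 of 6, held 79.0 and 79.9 in WT and 185 and 169.8 in GrnKO (log2 change 1.15, SE 0.20) and was called, but not without GrnKO replicate 1. The highest region, at chr4:123927770-123928570 in intron 5 of 6, held 159 and 132 in WT and 222 and 188 in GrnKO (log2 change 0.49, SE 0.18) and was not called. Outside the gene, a pair of overlapping intergenic regions 73.4 and 73.7 kb beyond the start was nearly empty in WT. The one at chr4:123990412-123991212 held 0 and 1.05 scaled tags in WT and 13.9 and 25.1 in GrnKO, and with 0 and 2 tags in WT no fold is given. The one at chr4:123990739-123991539 held 0 tags in both WT libraries and 11.6 and 30.9 scaled tags in GrnKO. The GrnKO mean of 21.3 ± 13.7 (SD, n = 2) was 10.9-fold a floor of 3 tags per library, or 1.96 scaled tags. GrnKO replicate 1 alone lay nearer to that floor. Both were called, and both calls were lost when either GrnKO library was left out. They passed the filter through the GrnKO libraries alone, and such regions can only be high there. With DESeq2, 2 of the 11 tested Rragc regions were called, against 3 with limma, beside 7.19% of all regions with DESeq2. Another region 78.6 kb out, at chr4:123995638-123996438, held 16.8 and 10.5 in WT and 45.5 and 25.4 in GrnKO (log2 change 1.29, SE 0.45) and was not called. The table assigns these 3 to Rragc by nearest start, with no other evidence of a link in the files.

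Rraga encodes RagA, a partner of both RagC and RagD. Its 6 regions summed to 127 and 116 scaled tags in WT and 158 and 91.1 in GrnKO (log2 change -0.02, SE 0.26), and the GrnKO libraries lay on either side of the WT libraries. The sign of this change turned with the scaling, so no direction is given. The region over its start, at chr4:86575296-86576096, showed the same pattern with 48.1 and 49.2 in WT and 75.5 and 41.1 in GrnKO (log2 change 0.19, SE 0.32). The region at chr4:86579259-86580059, assigned to Rraga but lying in the 3′ UTR of another gene's transcript, held 19.2 and 8.90 in WT and 8.20 and 4.61 in GrnKO (log2 change -0.98, SE 0.67), with neither of the Rraga regions outside the promoter called. The 3 Rag genes therefore spanned log2 changes from -0.02 to 3.36.

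**Figure D2:**
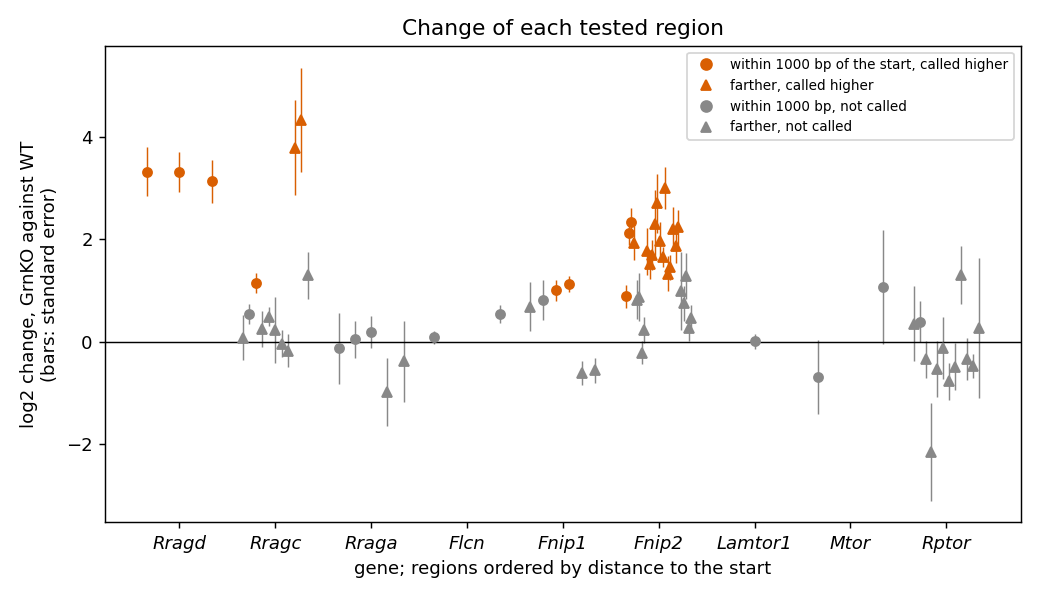
Log2 change of H3K27ac, GrnKO against WT, at each of the 68 tested regions of the 9 genes, with bars of 1 standard error; circles lie within 1000 bp of the start, triangles farther, and orange marks regions called higher. The called regions are at Rragd, Rragc, Fnip1 and Fnip2, and no region is called lower.

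Flcn encodes folliculin, the catalytic subunit of the complex, and had the highest acetylation at its start of the 9 genes. Its 2 regions, both in the promoter, summed to 735 and 638 scaled tags in WT and 799.9 and 766 in GrnKO, where both GrnKO libraries lay above both WT libraries (log2 change 0.19, SE 0.12). The sum was not called. The region upstream of the start that the table uses, at chr11:59809397-59810197, held 597 and 476 in WT and 572 and 559 in GrnKO (log2 change 0.09, SE 0.13). The overlapping one downstream, at chr11:59808771-59809571, held 138 and 163 in WT and 228 and 207 in GrnKO (log2 change 0.53, SE 0.18), with the GrnKO libraries above and no call. When only regions that do not overlap were summed, this second region stood for Flcn and was called. The start that the table uses for Flcn lies 438 bp from the RefSeq start, whereas for the other 8 genes both starts were the same base.

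Fnip1 and Fnip2 encode folliculin-interacting proteins, which hold folliculin in its active complex. The Fnip1 sum over 8 regions was 467 and 488 scaled tags in WT and 642 and 742 in GrnKO, with both GrnKO libraries above (log2 change 0.53, SE 0.13). This call too was lost when either GrnKO library was left out, at 0.63 without replicate 1 and 0.43 without replicate 2. The difference was at the start. The region at chr11:54437658-54438458, centred 121 bp before the start, held 81.3 and 85.4 in WT and 152 and 185 in GrnKO (log2 change 1.00, SE 0.21). The overlapping region at chr11:54438160-54438960 in intron 1 of 17, the highest of the gene, held 144 and 142 in WT and 296 and 333 in GrnKO (log2 change 1.13, SE 0.16). Both were called, the first not without either GrnKO library. The third promoter region, at chr11:54437089-54437889, held 31.7 and 16.5 in WT and 47.0 and 36.0 in GrnKO (log2 change 0.82, SE 0.39), uncalled. Deeper in intron 1, the 2 overlapping regions about 26.6 and 26.9 kb from the start went the other way. They held 101 and 121, and 93.9 and 108, in WT, and 62.5 and 83.3, and 60.0 and 77.5, in GrnKO, with both GrnKO libraries below both WT libraries and no call (log2 changes -0.61 and -0.55). The Fnip1 promoter regions summed to 257 and 244 in WT and 495 and 554 in GrnKO (log2 change 1.06), and its distal regions to 210 and 244 in WT and 146 and 188 in GrnKO (log2 change -0.45, not called).

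Fnip2 had the most regions of the 9 genes and the second largest difference. Its 26 regions summed to 842 and 996 scaled tags in WT and 2206 and 2234 in GrnKO. The GrnKO libraries lay close together, far above both WT libraries, with means of 919 ± 109 and 2220 ± 19.8 (SD, n = 2 each), 2.42-fold apart, and the log2 change was 1.28 (SE 0.11). All 26 regions were tested, 17 were called higher and 0 lower, and in 24 both GrnKO libraries lay above both WT libraries. At the start, 3 regions were called. The region at chr3:79567424-79568224, centred 145 bp before the start, held 78.6 and 126 in WT and 179 and 189.6 in GrnKO (log2 change 0.88, SE 0.22), a call lost without either GrnKO library. The region at chr3:79566835-79567635, centred 444 bp into the gene and the highest of Fnip2, held 46.1 and 84.9 in WT and 265 and 287 in GrnKO (log2 change 2.12, SE 0.24). The region at chr3:79566450-79567250, centred 829 bp into the gene in intron 1 of 16, held 24.6 and 28.02 in WT and 129.5 and 143 in GrnKO (log2 change 2.33, SE 0.27). Each of these regions overlaps the next and shares tags with it.

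Fnip2 also held a long run of called regions inside intron 1, which was picked out after its values were seen. From 13.3 to 39.6 kb into the gene, chr3:79527707-79554786, all 13 regions were called higher. Their sum was 302 and 277 scaled tags in WT and 1032 and 1006 in GrnKO, with tags in overlapping regions counted in each and with log2 changes of single regions from 1.33 to 2.99. One of the 13, centred 18.3 kb into the gene with 7 and 4 tags in WT, passed the filter through the GrnKO libraries alone and could only be called higher. Without GrnKO replicate 1, 2 of the 13 were called, and without GrnKO replicate 2, 6. The region with the largest change of the gene, at chr3:79536919-79537719, held 6.26 and 9.95 in WT and 66.8 and 73.4 in GrnKO (log2 change 2.99, SE 0.41). The region at chr3:79543897-79544697 held 2.74 and 6.81 in WT and 37.6 and 30.7 in GrnKO (log2 change 2.69, SE 0.57), and its call was lost without either GrnKO library. In WT the former rested on 8 and 19 tags and the latter on 3.5 and 13. With fewer than 10 tags in WT replicate 1, both needed the GrnKO libraries to pass the filter and could hardly be called lower. The edges of the run follow from its choice, so its flanks are given as values only. The 5 regions between 1.08 and 8.42 kb summed to 227 and 281 in WT and 329.5 and 339 in GrnKO, and 1 of them, centred 1.08 kb into the gene, was called (log2 change 1.92). The 5 regions from 42.5 to 83.1 kb summed to 163 and 200.1 in WT and 270.4 and 269.0 in GrnKO, with 0 called and the largest log2 change at 1.28. Of the difference in the Fnip2 gene sum, 31.0% lay in the 3 promoter regions.

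**Figure D3:**
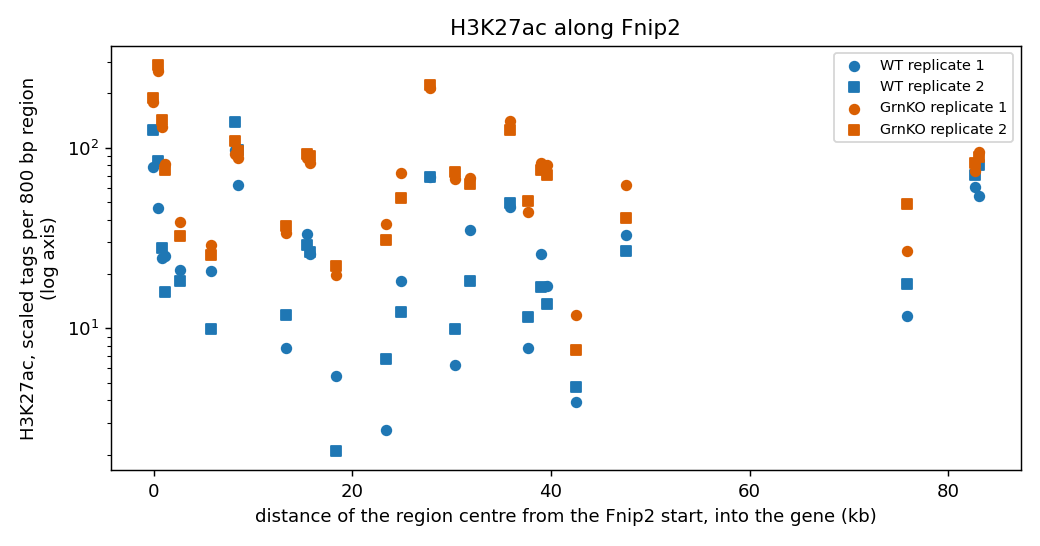
H3K27ac in scaled tags (log axis) at the 26 regions of Fnip2 by distance of the region's centre from the start, into the gene, in kb, with 1 point per H3K27ac library. Between 13.3 and 39.6 kb the GrnKO points lie above the WT points at all 13 regions, and within 1.08 kb of the start they lie above them too, while at 8.42 kb the points of the genotypes overlap.

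Lamtor1, Mtor and Rptor had no called gene sum. Lamtor1, the subunit that tethers Ragulator to the lysosomal membrane, had 1 region, at chr7:101905366-101906166 over its start, with 299.9 and 364 scaled tags in WT and 317 and 351 in GrnKO (log2 change 0.01, SE 0.15). The GrnKO libraries lay between the WT libraries. Mtor, the kinase itself, had little signal: its 3 regions summed to 14.1 and 21.5 in WT and 15.6 and 15.7 in GrnKO (log2 change -0.15, SE 0.52). The region nearest its start, at chr4:148447974-148448774, held 14.1 and 6.55 in WT and 6.22 and 5.08 in GrnKO (log2 change -0.69, SE 0.72). Before TMM scaling the Mtor sums came to 11.6 and 22.2 scaled tags in WT and 16.8 and 17.0 in GrnKO, and the inputs of the same pools held 0 and 7.49 in WT and 10.8 and 40.8 in GrnKO, so H3K27ac at Mtor was not above the input in GrnKO replicate 2.

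Rptor, which encodes the mTORC1 scaffold Raptor, had 14 regions, 12 of them tested. Their sum was 351 and 304 scaled tags in WT and 225 and 295 in GrnKO, with both GrnKO libraries below both WT libraries (log2 change -0.34, SE 0.18), and it was not called. The region over its start, at chr11:119602542-119603342, held 19.6 and 26.2 in WT and 31.1 and 29.1 in GrnKO (log2 change 0.39, SE 0.39). The highest region, at chr11:119710642-119711442 in intron 3 of 33, held 107 and 92.5 in WT and 63.1 and 81.0 in GrnKO (log2 change -0.47, SE 0.24). Of the 11 tested distal regions of Rptor, 8 had a log2 change below 0 and 3 above. Of the regions whose groups did not overlap, the largest changes were at chr11:119619580-119620380 in intron 1, with 11.3 and 8.38 in WT and 0.566 and 2.77 in GrnKO (log2 change -2.15, SE 0.95), at chr11:119692713-119693513 in intron 3, with 8.21 and 6.55 in WT and 17.3 and 22.1 in GrnKO (log2 change 1.30, SE 0.56), and at chr11:119670788-119671588 in intron 2, with 64.1 and 34.6 in WT and 26.02 and 28.4 in GrnKO (log2 change -0.77, SE 0.36). The first of these passed the filter through the WT libraries alone, so it could only be low in GrnKO, and in WT replicate 1 its H3K27ac, 9.36 scaled tags before TMM scaling, was under the input of 56.4.

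Ordered by the region nearest each start, WT acetylation ran from Flcn, at a mean of 536 ± 85.7 scaled tags (SD, n = 2), through Lamtor1 at 332 ± 45.1, Rragc at 117 ± 12.5, Fnip2 at 102 ± 33.3, Fnip1 at 83.4 ± 2.86, Rraga at 48.7 ± 0.804, Rptor at 22.9 ± 4.69 and Mtor at 10.3 ± 5.33 to Rragd at 4.57 ± 0.170. All regions have the same length, so the levels of these single regions can be compared between genes. The centres of the regions lie at different distances from the start. Of the neighbours in this order, the WT ranges of Rragc and Fnip2, and of Fnip2 and Fnip1, overlapped. Flcn stood at the 99.6th percentile of 21707 tested promoter regions in WT and Rragd at the 2.44th. The Rragd region, with 6 and 8.5 tags in WT, was among the tested ones through its GrnKO tags alone. Its low place in WT, and so its rise in rank, follows in part from the filter. In GrnKO Rragd was the only one of the 9 to change its place by more than 1, from the ninth to the seventh, at 55.0 ± 11.5 scaled tags and the 58.4th percentile, while Fnip2, at 184 ± 7.49, and Rragc, at 169.7 ± 9.23, changed places. At this single region Rragd in GrnKO reached about the level of Rraga, at 58.3 ± 24.4, whose GrnKO libraries span those of Rragd. Summed over promoter regions it lay above Rraga in GrnKO, with 242 and 201 in 3 regions against 145 and 79.4 in 4.

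**Figure D4:**
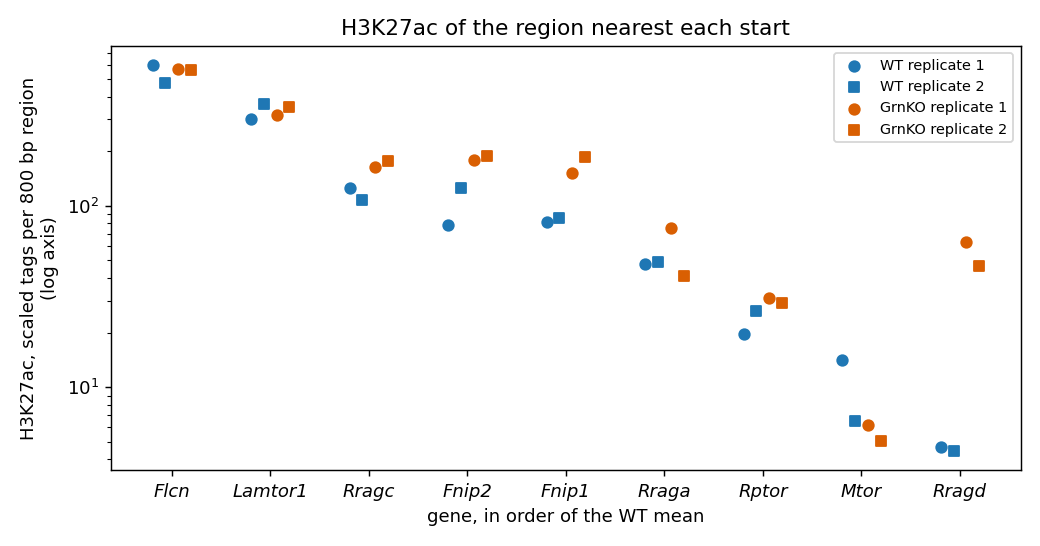
H3K27ac in scaled tags (log axis) of the 800 bp region nearest the start of each of the 9 genes, in order of the WT mean, with 1 point per H3K27ac library. Rragd is the lowest gene in both WT libraries, at 4.69 and 4.45, and lies at 63.1 and 46.8 in GrnKO.

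The 9 genes differed in where their acetylation lay. Within 1000 bp of a start there were 21 regions, of which 20 were tested and 9 called higher, and farther out 58 regions, of which 48 were tested and 16 called higher. Over all tested regions, 3.57% of promoter regions and 7.99% of distal regions were called higher. Without GrnKO replicate 1 the counts were 5 and 2, beside 0.553% and 1.75% of all, and without GrnKO replicate 2, 7 and 7, beside 0.728% and 2.21%. Since the genes were selected on this contrast, nothing is read from these shares. The promoter sums of 4 genes, Rragd, Rragc, Fnip1 and Fnip2, were called higher, beside 5.23% of all 11084 promoter sums called, 3.57% as higher and 1.66% as lower. For Rragc this sum was 205 and 188 scaled tags in WT and 348 and 346 in GrnKO (log2 change 0.82), and the call was lost without either GrnKO library. For Fnip2 it was 149 and 239 in WT and 574 and 619 in GrnKO (log2 change 1.65). Among distal sums only that of Fnip2 was called, at 693 and 758 in WT and 1632 and 1614 in GrnKO (log2 change 1.16), beside 18.1% of all 11368 distal sums called, 10.9% as higher and 7.13% as lower. The distal sum of Rragc, 355 and 368 in WT and 497 and 479 in GrnKO (log2 change 0.43), had both GrnKO libraries above both WT libraries. Those of Rptor (log2 change -0.41), Fnip1 (log2 change -0.45) and Rraga (log2 change -0.72) had both below. Over all distal sums, 27.4% lay above, 30.7% below and 58.1% did not overlap, and over all promoter sums 23.4%, 24.6% and 48.0%.

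Inputs give the background of the same regions before immunoprecipitation and had no part in the choice of the genes. Of 80728 regions tested in the inputs, 0 differed between genotypes in limma (0% called), with 1007 at an unadjusted p under 0.05. Between 43.1% and 91.3% of all listed regions held 0 tags in an input library, so few of them could pass, and edgeR and DESeq2 were not run on them. Of the 79 regions, 3 were at an unadjusted input p under 0.05. One of them was the region nearest the Mtor start, with an input of 0 in both WT pools and 9.71 and 22.4 scaled tags in GrnKO, above its H3K27ac of 6.73 and 5.49 before TMM scaling. The other 2 were overlapping regions of Fnip2 centred 0.829 and 1.08 kb into the gene, where the input was higher in WT, with 41.7 and 16.0 scaled tags in WT and 0 in both GrnKO inputs at the first. Their H3K27ac was higher in GrnKO, opposite to the input. A further region of Fnip2, centred 24.9 kb into the gene and not among these 3, had an input of 156.9 scaled tags in WT replicate 1 and 4.81 in WT replicate 2, against 13.9 and 0 in GrnKO, and its H3K27ac in WT replicate 1 was 15.2 before TMM scaling. In the 3 regions of Rragd the only input above 0 was 6.42 scaled tags, in WT replicate 2. The median log2 ratio of H3K27ac to input, taken within each pool, over the 79 regions was 3.83 and 3.01 in the WT pools and 3.76 and 4.92 in the GrnKO pools. This ratio depended on the pseudocount: with 5 in place of 1, its mean over pools was 1.67 in WT and 2.67 in GrnKO. In 23 regions H3K27ac was under the input in at least 1 pool. Of the 25 called regions, 7 lay under the input in a WT pool, at Rragd, Rragc and Fnip2, and the calls themselves require high GrnKO values.

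Beyond the 9 genes, 46 others of the same pathway were listed, of which 45 were in the table and 44 were tested, and Castor1 and Castor2 were found under older symbols. Of the 44, 5 rose in GrnKO, 3 fell and 36 passed no threshold, beside 14.5% of all genes called, 8.59% as higher and 5.88% as lower. This list too was written with earlier results of these libraries known. Their median log2 change was 0.02 against -0.05 over all genes. Among the MiT/TFE factors 3 of 4 rose. Tfec, a member expressed in myeloid cells, had gene sums of 413 and 332 scaled tags in WT and 960.0 and 817 in GrnKO (log2 change 1.26, SE 0.15, limma adjusted p = 9.1e-05). Tfeb, a master regulator of lysosomal genes, had 3949 and 4498 in WT and 5372 and 5265 in GrnKO (log2 change 0.34, SE 0.08, limma adjusted p = 0.011). Mitf had 2190.0 and 2319 in WT and 2940 and 2799 in GrnKO (log2 change 0.35, SE 0.08, limma adjusted p = 0.013). The GrnKO libraries lay above the WT libraries in all 3, while Tfe3, at 416 and 478 in WT and 472 and 483 in GrnKO, overlapped (log2 change 0.10, SE 0.14). Tfec passed with each library left out in turn, in the authors' scaling and with edgeR and DESeq2, whereas Tfeb and Mitf did not pass without either GrnKO library, nor in the authors' scaling, where their log2 changes were 0.56 and 0.57.

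In the group of Rag GTPases and Ragulator subunits, in which Slc38a9 was also listed, 1 of 5 tested genes fell. This was Lamtor3, a Ragulator subunit, with 1392 and 1311 scaled tags in WT and 844 and 940 in GrnKO (log2 change -0.60, SE 0.11, limma adjusted p = 0.0021). Rragb, the only Rag GTPase gene of this group, had too few tags to be tested. In the TSC complex, the inhibitor of mTORC1 that acts on Rheb, Tsc1 rose from 209 and 279 to 448 and 341 (log2 change 0.69, SE 0.19, limma adjusted p = 0.025), 1 of 5 genes of its group. Among the subunits of the mTOR complexes, Rictor, which belongs to mTORC2, fell from 206 and 138 to 104 and 90.4 (log2 change -0.80, SE 0.24, limma adjusted p = 0.042), 1 of 7. Among the mTORC1 substrates, Eif4ebp1, a repressor of translation, rose from 121 and 103 to 168 and 194 (log2 change 0.69, SE 0.21, limma adjusted p = 0.043), while the S6 kinase gene Rps6kb2 fell from 322 and 345 to 188 and 223 (log2 change -0.70, SE 0.17, limma adjusted p = 0.013). Of the 6 substrate genes 4 did not pass, and Rps6kb2 passed neither without GrnKO replicate 1 nor in the authors' scaling, and Eif4ebp1 not without either GrnKO library. None of the 17 tested genes of GATOR1 with KICSTOR, GATOR2 and the amino acid sensors passed the threshold in limma, edgeR or DESeq2, with 2 higher and 2 lower at an unadjusted p under 0.05. The genes with the highest sums among those that did not pass were Prr5l, Sesn1, Lamtor4 and Sec13, with log2 changes of 0.08, 0.12, -0.30 and -0.30. Without GrnKO replicate 1 only Tfec passed, 1 gene of the 44, beside 5.04% of all genes. Without GrnKO replicate 2, 4 passed, beside 6.78%, and without WT replicate 2, 14 passed, beside 24.2%. Rictor, at the edge of the threshold, also did not pass without WT replicate 1 (log2 change -0.51) or without the filter on low tags. In the authors' scaling without TMM, 4 rose and 0 fell, beside 11.7% of all genes called in that fit, 1629 as higher and 166 as lower.

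**Figure D5:**
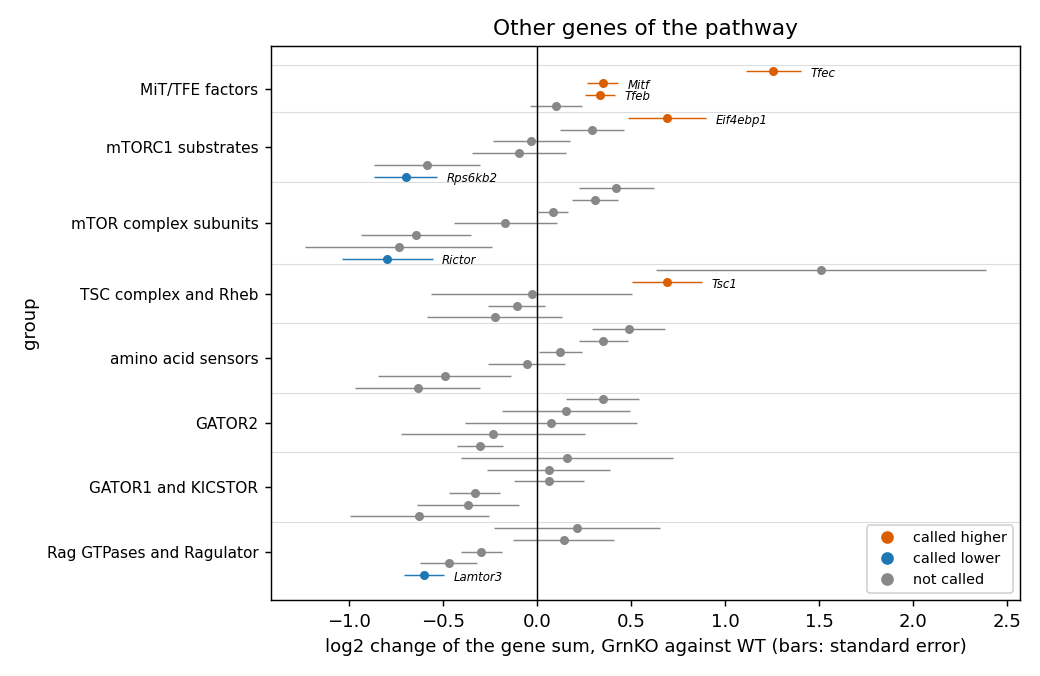
Log2 change of the H3K27ac gene sum, GrnKO against WT, for the 44 tested genes of the pathway list by group, with bars of 1 standard error; orange marks genes that rose, blue genes that fell and grey genes that did not pass. Of the MiT/TFE factors 3 of 4 are orange, with Tfec at 1.26.

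The genes whose pattern over the 4 H3K27ac libraries was most like that of Rragd and Fnip2 were found by the Euclidean distance of log2 gene sums, each centred on its WT mean, among tested genes within 4-fold of the WT mean of Rragd or Fnip2. For Rragd, among 7044 genes, these were Mgst1, Nlrc3 and Stra6l, at distances of 0.20, 0.24 and 0.25. With SD over n = 2 libraries, Mgst1 held a mean of 9.61 ± 1.97 scaled tags in WT and 103 ± 22.4 in GrnKO, Nlrc3 14.5 ± 5.04 and 144 ± 1.95, and Stra6l 17.97 ± 2.74 and 182 ± 8.41. For Fnip2, among 4539 genes, they were 1190005I06Rik, Grsf1 and Lipa, at 0.12, 0.13 and 0.15. Lipa held 565 and 619 in WT and 1405 and 1327 in GrnKO, Grsf1 216 and 255 in WT and 529 and 539.8 in GrnKO, and 1190005I06Rik 545 and 573 in WT and 1328 and 1348 in GrnKO. All 6 were matched on the same 4 libraries, so their likeness is a description.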

How the data were processed

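H3K27ac and input were measured in 8 libraries, 2 of each kind per genotype. Bowtie2, HOMER, DESeq2 and the build mm10 are named in the submitters' processing notes, with no role or version; the handling of duplicates is not given in the sources used here. The deposited values are a signal: per the file headers, the authors brought each library to a total of 10000000 tags, over a merged peak list whose labels name other knockout lines. Multiplying by the totals in the headers gave whole read ends, at 2 per tag, for 100% of values (tolerance 0.005 scaled tags).

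The 9 genes and the pathway list were chosen with earlier results of these data known, Rragd and Fnip2 among them. Tags were summed per gene, per promoter (within 1000 bp) and over farther regions. The test was limma 3.58.1 (R 4.3.3, eBayes with trend, two-sided) on log2(scaled tags / TMM factor + 1), with genotype as its only term and filterByExpr at 10 tags; log2 changes on this scale understate low regions. Inputs were fitted alike without TMM. The TMM factor was 0.825 for WT replicate 1 and 1.04 to 1.08 for the others. Adjustment was over all features. edgeR 4.0.16 and DESeq2 1.42.0 on tags rounded to whole numbers were alternatives, as were other scalings, filters, pseudocounts, thresholds, sums and each library left out; the tests were checked on simulated tags. Input libraries held 4078179 to 14415969 tags. The floor was 3 tags, 1.50 to 1.94 scaled tags by H3K27ac library, and covers counting error only. No batch was labelled. Coordinates are as the table gives them. Region sequences were not used, since no genome was at hand.

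The text names, per gene, the region nearest the start, the highest region and up to 3 with the largest change among regions whose groups do not overlap. It names each pathway gene past the threshold and the 4 highest of the rest, and the 3 genes most like Rragd and Fnip2. The run in Fnip2, the CACGTGAT search, the Fnip1 intron regions, the Rragc intron 1 region, Ube2j1 and Tfe3 were chosen after values were seen. The threshold of a call was an adjusted p under 0.05.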

Additional observations from a re-analysis of the deposited data

How the results depend on the processing

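The gene sums of Rragd and Fnip2 were called under each of 13 alternatives and differed by more than 2-fold, while those of Rragc and Fnip1 were lost in the fits without a GrnKO library and, being under 2-fold, at that threshold. The cause of the differences below was not tested unless fewer samples or another threshold make it. In the authors' scaling, which raised the median log2 change of all regions from -0.0020 to 0.22, only 333 regions and 166 gene sums were lower in GrnKO, 95.2% of regions and 90.8% of gene sums called were higher against 70.0% and 59.4%, and 4 pathway genes passed, 0 of them lower. Without the filter 1311 regions were lower. At an adjusted p under 0.1, 4170 regions, 1385 gene sums and 5 pathway genes were lower. With a change of at least 2-fold, 5054 regions (844 lower), 767 gene sums (602 higher, 165 lower), 2 of the 9 genes and 1 pathway gene (1 higher, 0 lower) remained. Sums over regions that do not overlap called 5 pathway genes, 3 of them higher, and Flcn at 0.53. Leaving out each library in turn gave 1351 to 14397 regions (1153 to 9666 higher, 198 to 4731 lower), 775 to 3718 gene sums (556 to 1992 higher, 219 to 1726 lower), 7 to 31 of the 68 regions, 2 to 4 of the 9 genes, 1 to 14 pathway genes (1 to 9 higher, 0 to 5 lower) and 1 to 2 distal sums; the lowest counts of regions and gene sums came without GrnKO replicate 1 and the highest without WT replicate 2, except that the 31 of the 68 came without WT replicate 1, and the lone library of a group was assumed to vary like the other group. The distal sums called were 2 with DESeq2, a pseudocount of 5, the replicate block or an adjusted p under 0.1, and 3 with promoters of 500 bp, where the promoter sum of Rragc was not called (0.54). The sign of small changes turned: Rraga gene sum 0.21 in the authors' scaling, 0.030 with edgeR, 0.064 with DESeq2 and -0.41 to 0.38 without a library, its promoter sum -0.31 to 0.55 and start region -0.24 to 0.62, Mtor 0.064 in the authors' scaling and -0.44 to 0.14 without a library, Lamtor1 -0.13 to 0.15, and the higher Flcn region -0.075 to 0.25. With a pseudocount of 5 the log2 ratio of H3K27ac to input was 1.67 in WT and 2.67 in GrnKO, in place of 3.42 and 4.34. Same-numbered libraries come from different mice and their deviations correlated at r = 0.03 over regions, so the numbers do not pair them; with a replicate block 11391 regions (7403 higher, 3988 lower) were called, among them all 7842 called without it.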
